A study of Mus musculus with 12 samples.

Results

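The non-specific lethal (NSL) complex was followed through the RNA of 8 of its subunits, Kansl1, Kansl2, Kansl3, Mcrs1, Wdr5, Phf20, Hcfc1 and Ogt. Every probe set that the platform annotation gives to 1 of these genes was taken, which made 10 probe sets among the 41345 of the array and 8 genes among the 22180 that have a probe set with 1 symbol. Kansl1 has 2 probe sets (17270621 and 17547591), and so does Kansl2 (17321227 and 17479162). The RNA was from E14.wt, a male line of mouse embryonic stem cells (mESCs) with a 129P2/OlaHsd background, and all groups had received a lentiviral pLKO.1 vector. Experiment A holds shMsl1_A, with a short hairpin RNA (shRNA) against Msl1, and its non-target controls shcontrol_A. Experiment B holds shNsl1_B, whose shRNA targets Nsl1 in the naming of the study, and its non-target controls shcontrol_B, with 3 arrays in each of the 4 groups. This Nsl1 is Kansl1 of the array annotation, whereas the mouse symbol Nsl1 belongs to a kinetochore gene. Each knockdown rests on 1 shRNA clone, and the cells had grown on CD1 feeder cells until their last passage. The study's methods call the replicates independent biological ones, a point on which the labels are silent, and all p-values rest on the spread between these arrays.

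The NSL complex carries the histone acetyltransferase Mof (Kat8), which acetylates histone H4, to the promoters of active genes. Kansl1 is its scaffold and holds Wdr5 and Mof, while Kansl2, Kansl3, Mcrs1 and the methyl-lysine reader Phf20 are further subunits. Hcfc1 encodes the transcriptional co-regulator HCF1, and Ogt encodes the enzyme that adds O-GlcNAc to nuclear proteins and also cleaves HCF1. Several subunits work elsewhere too, Wdr5 in the H3K4 methyltransferase complexes and in the ATAC complex, and Mcrs1 in the INO80 chromatin remodeller. In stem cells Wdr5 and Ogt are known for their part in keeping the pluripotent state.

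The promoters of the members are shown as a description. Whether motifs that they share go with RNA levels that vary together over the arrays was not tested. RefSeq (GRCm38.p6) gives 11 windows of 300 bases for the 8 genes, running from 250 bases before a start site to 50 after it, with 3 windows for Kansl1 and 2 for Ogt. The 4 stretches below cover the last 100 bases before the start and the 50 after it, read 5′ to 3′ on the minus strand. Capitals mark a match to the YY1 motif (AANATGGCG) in Kansl1, Kansl2 and Hcfc1, and to the ETS motif (CCGGAAG) in Hcfc1 and Mcrs1, on either strand.
Kansl1, chr11:104442242-104442391: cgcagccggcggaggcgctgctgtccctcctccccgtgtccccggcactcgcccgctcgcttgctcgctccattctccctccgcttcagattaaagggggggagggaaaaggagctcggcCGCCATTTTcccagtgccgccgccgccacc
Kansl2, chr15:98534220-98534369: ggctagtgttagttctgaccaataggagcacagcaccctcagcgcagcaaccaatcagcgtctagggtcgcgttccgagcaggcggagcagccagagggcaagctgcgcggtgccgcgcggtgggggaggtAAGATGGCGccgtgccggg
Hcfc1, chrX:73966308-73966457: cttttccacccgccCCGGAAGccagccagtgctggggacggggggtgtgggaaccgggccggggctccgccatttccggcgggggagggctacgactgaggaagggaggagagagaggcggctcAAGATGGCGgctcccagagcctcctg
Mcrs1, chr15:99251912-99252061: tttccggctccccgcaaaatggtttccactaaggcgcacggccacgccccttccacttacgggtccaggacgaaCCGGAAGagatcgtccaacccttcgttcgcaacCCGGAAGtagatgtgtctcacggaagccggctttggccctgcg
The YY1 motif was in 3 of the 11 member windows, of 3 members, against 2.38% of the 32851 windows of the same length. The ETS motif was in 2 of the 11, of 2 members, against 8.86%. The NRF1 motif (GCATGCGC, in 2.71% of all windows) was in a window of Ogt, and the ZNF143 motif (ACTACAANT, in 1.49%) was in none. CCAAT was in 4 of the 11 windows, of 4 members (37.4% of all windows), and GGGCGG in 10 of the 11, of 7 members (35.7%). The CG dinucleotide occurred 14 to 41 times in the members' windows, with a median of 24, against a median of 7 over all windows. Both strands were searched, no printed match overlaps another, and a match describes the letters only.

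The level of the targeted gene was examined first. Kansl1, the scaffold, was lower on the arrays with the Nsl1 shRNA by both of its probe sets, although neither passed the test over all probe sets. Values are log2 signals from robust multi-array average (RMA), so a difference of 1 is a doubling. Probe set 17547591 had signals of 6.45, 6.56 and 6.71 on the shNsl1_B arrays 1, 2 and 3, against 7.33, 7.30 and 7.36 on the shcontrol_B arrays. The groups did not overlap, as was the case, with the knockdown lower, for 5.64% of all probe sets. On the other 9 arrays of the study, those of experiment A included, this probe set stayed between 7.27 and 7.39, a range of 0.12, so that the 3 low arrays are those labelled shNsl1_B. Its group means were 6.57 ± 0.13 for shNsl1_B, 7.33 ± 0.03 for shcontrol_B, 7.35 ± 0.07 for shMsl1_A and 7.34 ± 0.02 for shcontrol_A (SD, n = 3 each), and the last 3 do not differ beyond their spread.

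Probe set 17270621 of Kansl1 gave a wider picture. Its signals were 8.47, 8.92 and 9.30 on the shNsl1_B arrays and 9.14, 9.36 and 9.52 on the shcontrol_B arrays, so 2 of 3 knockdown arrays lay below every control of the experiment. The array shNsl1_B 3 lay within the range of the controls. The log2 fold change was -0.45 ± 0.23 (SE), with a 95% interval of -1.0003 to 0.11, whereas that of 17547591 was -0.76 ± 0.10 with an interval of -0.998 to -0.52. For 17270621 it was -0.23 without shNsl1_B 1 and -0.65 without shNsl1_B 3. The adjusted p-values by limma were 1.00 for 17270621 and 0.297 for 17547591, and the exact permutation tests, two-sided, gave p = 0.2 and p = 0.1, where 0.1 is the smallest value that 3 arrays against 3 allow.

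Same-numbered arrays of experiment B deviated together and were taken as pairs. The intervals and permutation tests above took no account of these pairs. Within the pairs the difference of 17547591 was -0.89, -0.73 and -0.65, and that of 17270621 was -0.67, -0.44 and -0.22. Both probe sets had their widest difference in pair 1 and their narrowest in pair 3. With a replicate block in the fit the 95% interval was -0.98 to -0.53 for 17547591 and -0.73 to -0.16 for 17270621. The unadjusted p was then 2.66e-04 for 17547591 and 0.00918 for 17270621, while 14.9% of all probe sets were under 0.05 by that measure. After adjustment they stood at 0.104 and 0.185, and the block fit called 0% of all probe sets. Lower in all 3 pairs were 2 of the 10 member probe sets, those of Kansl1, against 17.8% of all probe sets. In a fit of all 12 arrays, which called 0.133% of the probe sets, 17547591 was the only member called (adjusted p = 0.0120). The ranking method of the study's own analysis, FCROS (fold change rank ordering statistics), put both Kansl1 probe sets among the lower ones, where it put 3.36% of all probe sets, and no member among the higher ones, with 1.85% of all.

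**Figure D1:**
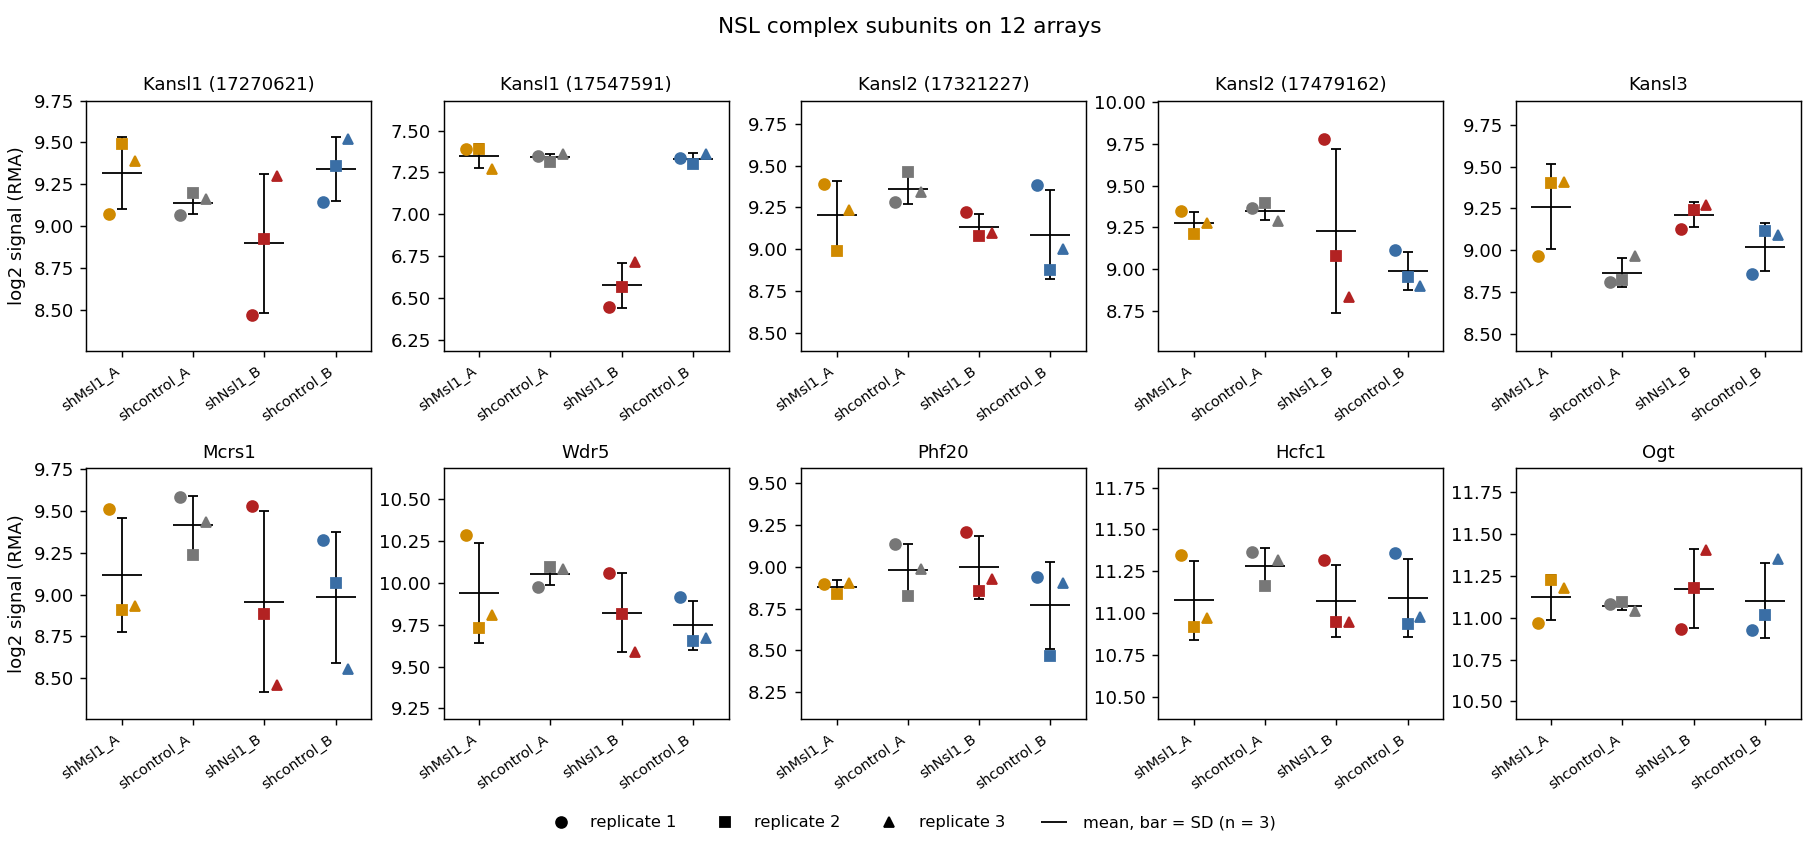
Log2 RMA signal of the 10 member probe sets on all 12 arrays, by group. Symbols give the replicate number, the horizontal mark is the group mean and the bar its SD (n = 3), and every panel spans 1.5 log2 units. In the Kansl1 panel of 17547591 the shNsl1_B arrays sit between 6.45 and 6.71 and the other 9 arrays between 7.27 and 7.39.

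The question whether the other subunits' RNA moved when the scaffold was depleted was addressed by the remaining 8 probe sets. None of them passed the test in experiment B, and their log2 fold changes lay between -0.03 (Mcrs1) and 0.24 (Kansl2, 17479162). Limma called 0% of all probe sets in this comparison, with 2175 at an unadjusted p under 0.05, of which 1 was a member probe set (Kansl1, 17547591). The median log2 fold change of the 8 was 0.07, against 0.01 over all probe sets. In size, without sign, their median was 0.07 against 0.10 over all.

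Kansl3 was the member outside Kansl1 whose groups did not overlap. It had signals of 9.13, 9.24 and 9.27 on the shNsl1_B arrays, against 8.86, 9.12 and 9.09 on the shcontrol_B arrays. All knockdown arrays were above all controls, as they were for 4.66% of all probe sets. The log2 fold change was 0.19 ± 0.11 (SE, adjusted p = 1.00 by limma, exact permutation p = 0.1, two-sided), and with the replicate block the adjusted p was 0.369. The lowest knockdown array (9.13) was close to the highest control (9.12), and without shcontrol_B 1 the log2 fold change was 0.11.

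Phf20, the methyl-lysine reader, had signals of 9.21, 8.85 and 8.93 on the shNsl1_B arrays and 8.94, 8.47 and 8.90 on the shcontrol_B arrays. The groups overlapped, and the log2 fold change was 0.23 ± 0.17, or 0.08 without shcontrol_B 2 and 0.12 without shNsl1_B 1. Its signal was higher in each pair, by 0.27, 0.39 and 0.03. Ogt was also higher in each pair, by 0.003, 0.16 and 0.05, with signals of 10.93, 11.18 and 11.41 on the shNsl1_B arrays and 10.93, 11.02 and 11.35 on the shcontrol_B arrays. Together with Kansl3 these were 3 of 10 member probe sets higher in all 3 pairs, against 18.6% of all probe sets.

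Hcfc1 gave the closest match between the groups. Its signals were 11.32, 10.95 and 10.95 on the shNsl1_B arrays and 11.36, 10.93 and 10.98 on the shcontrol_B arrays, and the differences within the pairs were -0.04, 0.01 and -0.03. With the replicate block the 95% interval of its log2 fold change was -0.21 to 0.18, the narrowest of the 10. Without the block this interval was -0.42 to 0.39. Wdr5, the WD40 protein that the scaffold holds, had signals of 10.06, 9.81 and 9.59 on the shNsl1_B arrays and 9.91, 9.66 and 9.67 on the shcontrol_B arrays, a log2 fold change of 0.08 ± 0.15. The groups overlapped, with 1 knockdown array above every control and 1 below.

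Mcrs1, shared with INO80, varied most among the members. It had signals of 9.53, 8.88 and 8.46 on the shNsl1_B arrays, against 9.33, 9.07 and 8.56 on the shcontrol_B arrays. The pairs thus fell at different levels while the groups overlapped, and the log2 fold change was -0.03 ± 0.32 without the block and -0.03 ± 0.11 with it. The differences within the pairs were 0.21, -0.19 and -0.10, so the direction differed between pairs. In the fit without the block, the log2 fold change was -0.31 without the array shNsl1_B 1 and 0.22 without shNsl1_B 3. Each of these fits leaves 1 pair incomplete, so the level of that pair enters the value.

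For Kansl2 the 2 probe sets differed in their spread. Probe set 17321227 had signals of 9.23, 9.08 and 9.10 on the shNsl1_B arrays and 9.39, 8.87 and 8.999 on the shcontrol_B arrays. Probe set 17479162 had 9.78, 9.08 and 8.83 on the shNsl1_B arrays and 9.12, 8.96 and 8.90 on the shcontrol_B arrays. The signal of 9.78 on shNsl1_B 1 was the highest of that probe set on any array. Without this array its log2 fold change was -0.03, against 0.24 ± 0.25 with it. RefSeq lists a pseudogene of Kansl2, Kansl2-ps, on chromosome 7, and which of the sequences each probe set reads was not tested.

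**Figure D2:**
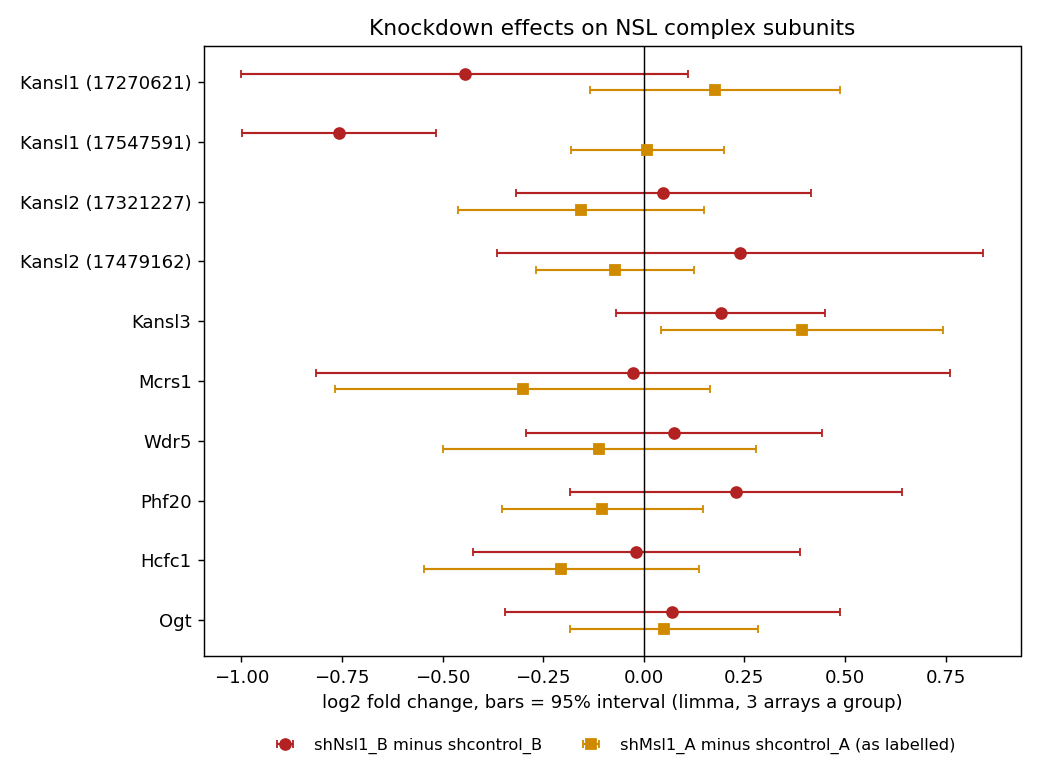
Log2 fold changes of the member probe sets in both knockdowns with their 95% intervals from limma, each fitted on 6 arrays. In shNsl1_B the interval of Kansl1 17547591 (-0.998 to -0.52) lies below 0, and in shMsl1_A, as labelled, that of Kansl3 (0.04 to 0.74) lies above 0.

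In experiment B the range of the 3 pair means was larger than the mean difference within pairs for 8 of the 10 member probe sets, the exceptions being Kansl1 17547591 and Kansl3. This was so for 82.4% of all probe sets, a share close to that of the members. The median range of the pair means was 0.41 for the members and 0.27 over all. The widest was that of Mcrs1, with pair means of 9.43, 8.98 and 8.51. Kansl1 17270621 had pair means of 8.80, 9.14 and 9.41, and Kansl2 17479162 of 9.45, 9.02 and 8.87.

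The members did not all run the same way over the pairs, with 6 of the 10 higher in pair 1 than in pair 3, against 20867 of all 41345 probe sets. Highest in pair 1 were Mcrs1, Wdr5 (9.99, 9.73 and 9.63 in pairs 1, 2 and 3), Hcfc1 (11.34, 10.94 and 10.96), Phf20 (9.08, 8.66 and 8.91) and both probe sets of Kansl2. Lowest in pair 1 were both probe sets of Kansl1, Kansl3 (8.99, 9.18 and 9.18) and Ogt (10.93, 11.10 and 11.38). Kat8, the catalytic subunit, was highest in pair 1 as well, with 9.93, 9.64 and 9.19 on the shNsl1_B arrays and 9.83, 9.46 and 9.44 on the shcontrol_B arrays. Its log2 fold change was 0.01 ± 0.22.

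The summed signal of a list of fibroblast markers moved with the same arrays. Of 15 fibroblast markers 14 were measured, and the log2 of their summed signal was 13.10, 13.90 and 13.99 on the shNsl1_B arrays and 13.27, 13.97 and 13.72 on the shcontrol_B arrays, lowest in pair 1 in both groups. The same sum over 12 mESC markers was 14.46, 14.21 and 14.21 on the shNsl1_B arrays and 14.47, 14.19 and 14.31 on the shcontrol_B arrays, highest in pair 1. The fibroblast sum is set mostly by Vim (12.03 to 12.98 on the 12 arrays), Acta2 (10.50 to 12.49) and Tagln (9.65 to 12.01). Some fibroblast markers were low on every array, among them Lum (3.40 to 3.77), Dcn (5.09 to 5.69), S100a4 (4.54 to 5.81), Twist2 (5.07 to 6.21) and Pdgfra (5.30 to 6.59). Others ranged more widely, among them Postn (4.01 to 9.24), Col1a1 (7.28 to 9.93) and Pdgfrb (6.47 to 8.92). Of the mESC markers, Nanog lay between 11.56 and 12.18 and Dppa5a was low (5.02 to 5.53). The part of the feeder cells in the pair differences was not tested. In such bulk RNA, fewer cells of a type and less RNA per cell cannot be told apart.

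**Figure D3:**
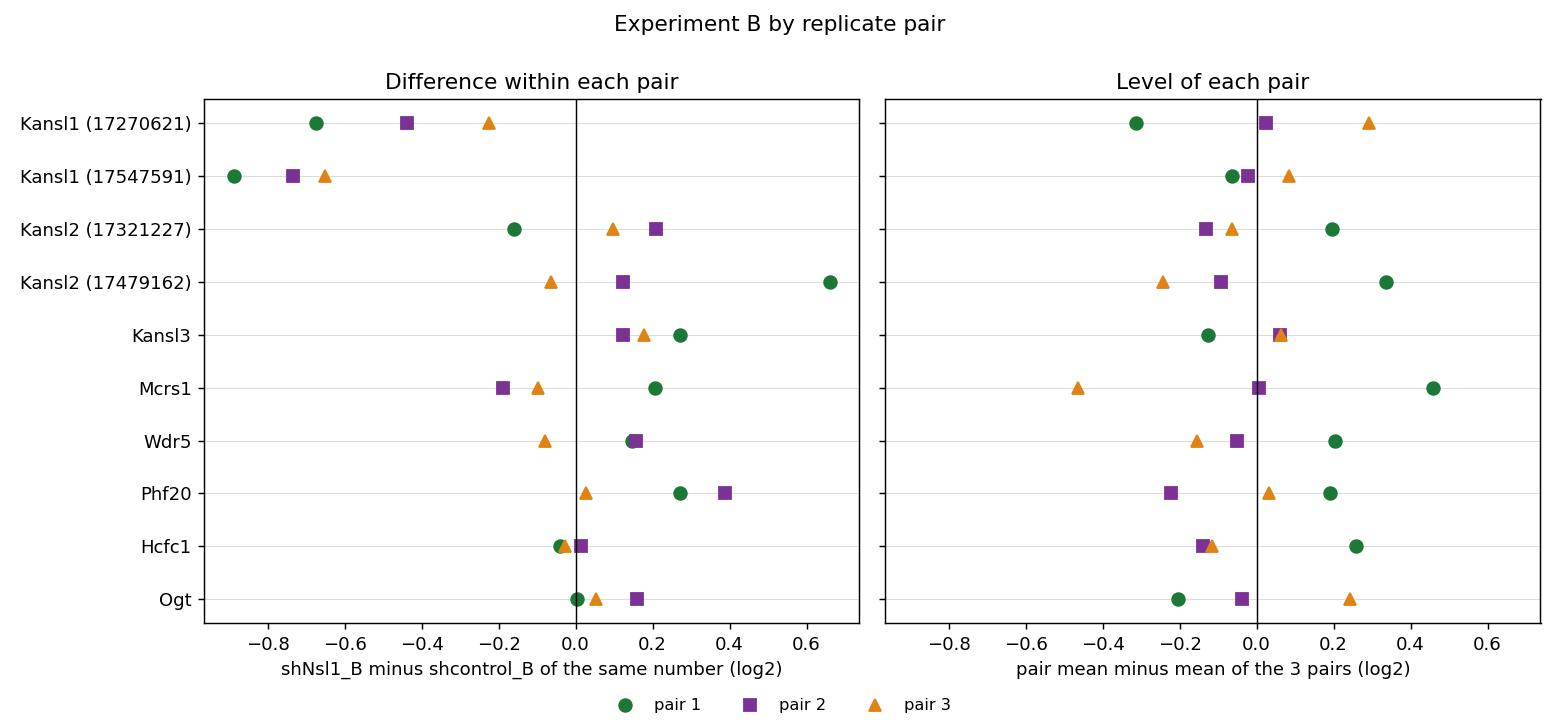
Experiment B by replicate pair, on a shared log2 axis. The left panel gives shNsl1_B minus shcontrol_B within each pair and the right panel each pair's mean minus the mean of the 3 pairs. Both Kansl1 probe sets lie below 0 in every pair on the left, while on the right Mcrs1 spans 0.92.

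Experiment A holds a second knockdown, that of Msl1, the scaffold of the other Mof complex. Before its values, the labels need a word. Msl1 had signals of 6.77, 9.18 and 7.64 on the arrays labelled shMsl1_A and 8.56, 6.90 and 8.62 on those labelled shcontrol_A, so its level went against the label on replicate 2 of both groups. All directions below rest on the labels.

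As labelled, no member passed the test in the Msl1 comparison, where limma called 0% of all probe sets and 3163 were at an unadjusted p under 0.05, 1 of them a member. That member was Kansl3, with signals of 8.97, 9.40 and 9.41 on the arrays labelled shMsl1_A and 8.81, 8.82 and 8.97 on those labelled shcontrol_A. The groups overlapped at 8.97, to 2 decimals, and the log2 fold change was 0.39 ± 0.14 (SE, adjusted p = 0.622 by limma). Mcrs1 had 9.51, 8.91 and 8.93 on the arrays labelled shMsl1_A and 9.58, 9.24 and 9.43 on those labelled shcontrol_A, a log2 fold change of -0.30 ± 0.19. Hcfc1 (-0.20 ± 0.14) was likewise at its lowest on shMsl1_A 2 and 3, with signals of 11.35, 10.91 and 10.97 on the arrays labelled shMsl1_A and 11.37, 11.16 and 11.31 on those labelled shcontrol_A. The other probe sets lay between -0.16 (Kansl2, 17321227) and 0.18 (Kansl1, 17270621). No member had groups that did not overlap, against 5.78% of all probe sets below and 6.38% above their controls.

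The array labelled shMsl1_A 1, which had the lowest Msl1 signal of all arrays (6.77), stood apart from shMsl1_A 2 and 3. Without shMsl1_A 1, Kansl3 had a log2 fold change of 0.54 (adjusted p = 0.0155 by limma) and Mcrs1 of -0.50 (adjusted p = 0.0438), but 16.4% of all probe sets were then called. The arrays left had Msl1 signals of 9.18 and 7.64, against 8.56, 6.90 and 8.62 on those labelled shcontrol_A. This fit is therefore not a cleaner reading of an Msl1 knockdown. Without replicate 2 of both groups, the 2 arrays whose Msl1 level went against the label, limma called 0 of all probe sets. That no member was called there does not set the members apart. The summed fibroblast markers were 13.18, 14.29 and 14.14 on the arrays labelled shMsl1_A and 13.35, 12.94 and 13.31 on those labelled shcontrol_A. The summed mESC markers were 14.73, 13.93 and 14.12 on the arrays labelled shMsl1_A and 14.59, 14.68 and 14.58 on those labelled shcontrol_A. The arrays with high fibroblast markers, shMsl1_A 2 and 3, were those with low Mcrs1 and Hcfc1 and high Kansl3, and the part of the feeder cells in this was not tested.

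The 2 knockdowns were then set against each other, to ask whether a subunit responded differently. Kansl1 17547591 showed the widest difference of the effects, -0.77 ± 0.11 (SE, Nsl1 minus Msl1 knockdown, adjusted p = 0.103 by limma), and 17270621 had -0.62 ± 0.27 (adjusted p = 0.766). No member was called, with 0.00967% of all probe sets called and 2668 at an unadjusted p under 0.05, of which the 2 probe sets of Kansl1 were members. For the other 8 probe sets the difference lay between -0.20 (Kansl3) and 0.33 (Phf20), and each of their 95% intervals held 0.

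Control arrays of experiments B and A had the same non-target hairpin, so their comparison shows how far the subunits varied without a knockdown. Here limma called 5.41% of all probe sets, 12100 were at an unadjusted p under 0.05, 2 of them members, and no member was called. Kansl2 17479162 had signals of 9.12, 8.96 and 8.90 on the shcontrol_B arrays and 9.36, 9.39 and 9.29 on the shcontrol_A arrays, a log2 fold change of -0.36 ± 0.09 (adjusted p = 0.072). Wdr5 had 9.91, 9.66 and 9.67 on the shcontrol_B arrays and 9.98, 10.10 and 10.08 on the shcontrol_A arrays, a log2 fold change of -0.31 ± 0.10 (adjusted p = 0.117). In both cases every control of B was below every control of A, as for 22% of all probe sets, while 13.9% were above, among them no member. Without shcontrol_B 1, which called 20.3% of all probe sets, Wdr5 (-0.39, adjusted p = 0.0373) and both probe sets of Kansl2 (-0.42 each, adjusted p = 0.0406 for 17321227 and 0.0310 for 17479162) were called. Replicate 2 of shcontrol_A had an Msl1 level against its label, and without it no probe set was called, as was also so when any other array but shcontrol_B 1 was left out. In size these differences between control groups were above the knockdown differences of Wdr5 and Kansl2 in experiment B, which was not tested, and what else differed between the experiments cannot be told apart from them.

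Paralogs of the subunits were given the same test. Hcfc2, the paralog of Hcfc1, had signals of 6.10, 6.21 and 6.24 on the shNsl1_B arrays, against 6.53, 6.60 and 6.82 on the shcontrol_B arrays. All knockdown arrays were below all controls, as they were for 5.64% of all probe sets. The log2 fold change was -0.47 ± 0.11 (SE, adjusted p = 0.587 by limma, 0.134 with the replicate block). Kansl1l had 5.95, 5.99 and 5.92 on the shNsl1_B arrays and 5.70, 5.87 and 5.84 on the shcontrol_B arrays, and 0.15 ± 0.09 as its log2 fold change. Its groups did not overlap either, with the knockdown higher, as for 4.66% of all probe sets. Phf20l1 and Wdr5b had log2 fold changes of 0.11 ± 0.40 and -0.18 ± 0.19. The kinetochore gene with the symbol Nsl1 had one of -0.01 ± 0.10.

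Among the complexes that share subunits with NSL, no gene of any list passed the test after Nsl1 knockdown. Since limma called 0% of all probe sets in this comparison, this does not set the lists apart from other genes. Over all 22180 genes the median log2 fold change was -0.001, and 49.7% were above 0. Of 16 genes of the Wdr5-containing H3K4 methyltransferase complexes, 10 were above their controls and the median was 0.07, with Men1 (menin) at -0.23 ± 0.11 and the demethylase Kdm6a at 0.17 ± 0.09. Of the 9 measured genes of the ATAC complex, 5 were above and the median was 0.01, with the acetyltransferase Kat2b at 0.29 ± 0.22 and Mbip at -0.24 ± 0.15. Of the 12 measured INO80 genes that partner Mcrs1, 6 were above and the median was -0.005, with the ATPase Ino80 at 0.16 ± 0.09 and Tfpt at -0.35 ± 0.19.

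Partners of HCF1 and OGT were as evenly divided, with 8 of 16 measured genes above their controls and a median of 0.02. The deubiquitinase Bap1 was at -0.25 ± 0.19 and Asxl2, its partner, at 0.28 ± 0.15. Of 7 genes listed for the supply and removal of O-GlcNAc, 5 were below their controls and the median was -0.20. The kinase Nagk was at -0.20 ± 0.08 and the O-GlcNAcase Oga at 0.17 ± 0.08. In the Mof and MSL list, Msl1 was at 0.31 ± 0.10, with an adjusted p of 0.802 by limma. Its knockdown arrays were all above all controls (9.17, 9.02 and 9.004 in shNsl1_B, against 8.84, 8.64 and 8.79 in shcontrol_B), as for 4.66% of all probe sets. Msl3 was at -0.44 ± 0.24. These medians describe lists of 4 to 16 genes and were not tested.

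**Figure D4:**
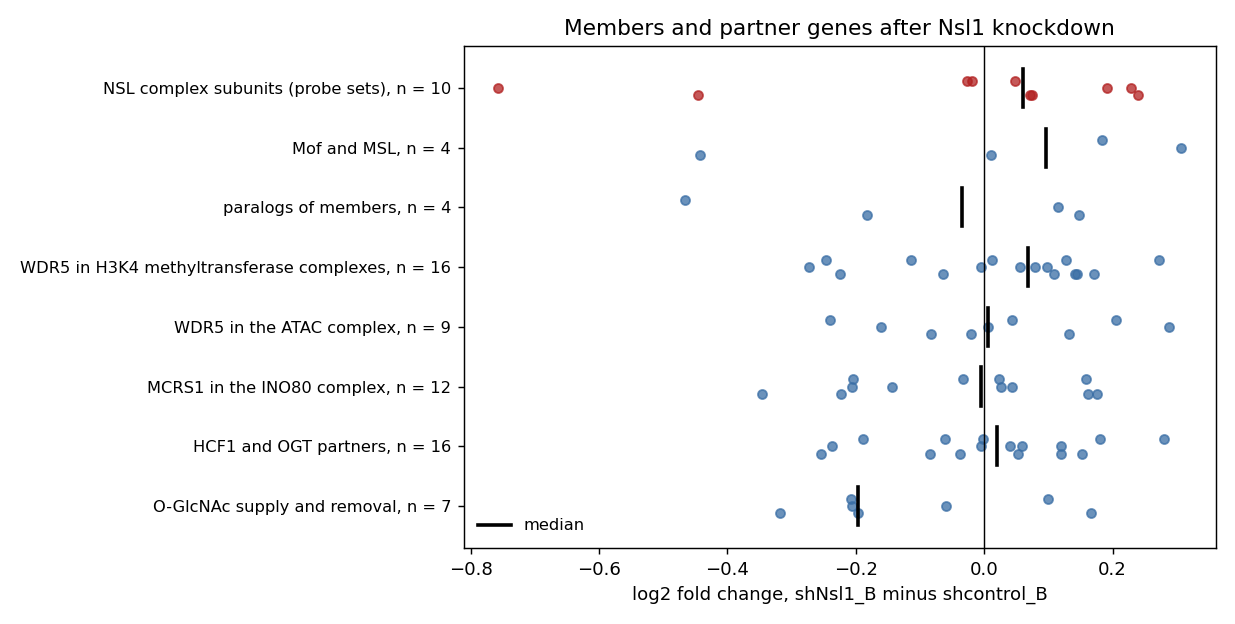
Log2 fold change after Nsl1 knockdown (shNsl1_B minus shcontrol_B) of each member probe set and of each measured partner gene. Points are probe sets or genes and the vertical mark is the list's median. The 2 Kansl1 probe sets (-0.76 and -0.45) lie left of the other members, which run from -0.03 to 0.24.

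Some genes followed Kansl1 over the arrays. Among 18816 genes with a name of their own, the 5 with the highest Pearson r to the mean of the Kansl1 probe sets over the 12 arrays were Man2b2 (0.979), Tbc1d19 (0.973), Rttn (0.970), Pacc1 (0.966) and Trmt2b (0.954). The points share the same RNA, and since the genes were chosen by this likeness on the same arrays, their values are a description. Each of these genes was lower on every shNsl1_B array than on every other array, as was Kansl1 17547591. The r therefore reflects in large part the gap between that group and the rest. Whether the genes vary with Kansl1 apart from the knockdown was not tested. Man2b2, a lysosomal mannosidase, had signals of 6.01, 6.67 and 7.29 on the shNsl1_B arrays and 7.49, 7.68 and 8.0004 on the shcontrol_B arrays. Tbc1d19 had 6.93, 7.58 and 7.91 on the shNsl1_B arrays and 8.41, 8.91 and 8.97 on the shcontrol_B arrays.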

How the data were processed

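RNA of 12 samples was hybridised to Affymetrix Mouse Gene 2.0 ST arrays. The authors made the deposited log2 values with Expression Console 1.1 by RMA, which corrects the background, normalizes quantiles between arrays and summarises probe sets. Values were used as deposited, with no filter, for 41345 probe sets. The platform annotation gives 1 symbol to 23521 of them, several entries to 1820 and none to 16004, and all 8 members matched. Array medians lay between 5.58 and 5.78, and the correlation between arrays of a group between 0.965 and 0.995. Arrays have no depth, and their number limits the precision.

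For each knockdown, limma 3.58.1 under R 4.3.3 was fitted to the 6 arrays of that experiment (lmFit, eBayes, two-sided, Benjamini-Hochberg over all probe sets, threshold 0.05), and the difference of the effects in a fit of 12 arrays with 4 group means. The scripts were tested on simulated data. FCROS was written anew with 9 pairs of arrays, a trim of 0.25 and limits of 0.025 and 0.975. To see whether replicate numbers pair the arrays, each array was set against its group mean, and these deviations correlated between same-numbered arrays at 0.767, 0.326 and 0.704 in experiment B, which was taken as paired, and at 0.045, -0.226 and 0.210 in experiment A, which was not. A replicate block, scaling, a filter on dim probe sets, the variance model, the arrays in the fit and leaving out arrays were alternatives. Arrays were left out in fits without the block, so in experiment B the level of the incomplete pair enters these values.

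Named are all member probe sets, Kat8, Msl1, the kinetochore gene Nsl1, paralogs of members, at most 2 genes of each partner list with the smallest p after Nsl1 knockdown, and the 5 genes most correlated with Kansl1. Other genes are given by their probe set with the highest mean. The members and lists were chosen with earlier results of these data known. No probe set position is printed, since no source used here names the genome build of the array. Promoters are RefSeq windows of GRCm38.p6. The figures were drawn with matplotlib 3.10.9.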

Additional observations from a re-analysis of the deposited data

How the results depend on the processing

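After Nsl1 knockdown, no member was called by limma after centring the arrays, leaving out dim probe sets, another variance model or the replicate block. Each of these settings called 0 of all probe sets. The adjusted p of Kansl1 17547591 by limma ran from 0.104 with the replicate block to 1.00 without shcontrol_B 2. That range covers these settings and those with 1 array left out. The fit of all 12 arrays called 1 member and 55 probe sets, and FCROS 2 members and 2155 probe sets. For Msl1 knockdown FCROS called 1247 probe sets. The control comparison called 0 probe sets without dim probe sets and 0 without the 2 arrays with an Msl1 level against their label. The difference of the effects called 0 probe sets after centring, 1 without dim probe sets, 0 with a trended and robust variance and 0 without those 2 arrays. Leaving out 1 array gave 0 to 2 members and 0 to 6771 probe sets for Msl1 knockdown, 0 to 3 members and 0 to 8382 probe sets for the controls, and 0 to 3 probe sets for the difference of the effects. The replicate block changed no call.

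The sign turned in the following values. After centring, Msl1 knockdown gave -0.0488 for Kansl1 17547591 and -0.00808 for Ogt, and the controls -0.0407 for Ogt. Without the 2 arrays with an Msl1 level against their label, it gave -0.0242 for Kansl1 17547591, 0.00254 for Kansl2 17321227 and 0.0161 for Wdr5. With 1 array left out, Nsl1 knockdown ranged from -0.141 to 0.116 for Hcfc1, -0.0575 to 0.198 for Kansl2 17321227, -0.0336 to 0.438 for Kansl2 17479162, -0.314 to 0.223 for Mcrs1, -0.0454 to 0.198 for Ogt and -0.0450 to 0.191 for Wdr5. These fits had no block and left 1 pair incomplete, so the level of that pair enters these ranges. Msl1 knockdown ranged from -0.0118 to 0.0495 for Kansl1 17547591 and -0.000407 to 0.127 for Ogt. The controls ranged from -0.0238 to 0.00794 for Kansl1 17547591 and -0.0980 to 0.114 for Ogt, and the difference of the effects from -0.0124 to 0.524 for Mcrs1 and -0.0952 to 0.148 for Ogt. The cause was not tested.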
